A study of Mus musculus with 8 samples.

Results

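MERVL is an endogenous retrovirus of the mouse genome, and MT2 is the name of the long terminal repeats (LTRs) of this retrovirus and of its older relatives. The small RNAs described here are all distinct sequences whose deposited annotation starts with MERVL or MT2, 53163 of the 6246223 distinct sequences in the table. They carried 7 repeat names and were read as 3 classes. The internal region (MERVL-int and MERVL_2A-int) had 25306 sequences, MT2_Mm, the LTR that flanks MERVL-int, had 4796, and the older MT2 LTRs (MT2C_Mm, MT2B2, MT2B and MT2A) had 23061. Of all 53163, 42641 were 24 to 33 nt long, the length of the small RNAs that Piwi proteins bind. These made up 2.69% (95% interval 2.66 to 2.72) of the 1585306 sequences of this length annotated to repeats.

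The RNA came from mouse testes that were homozygous or heterozygous for a knockout (KO) allele of Tdrd1 or of Tdrd6, genes for Tudor-domain proteins of the germline piRNA machinery. There was 1 library for each of 8 groups: homozygous and heterozygous Tdrd1 testes at 18.5 days post coitum, and homozygous and heterozygous Tdrd6 testes at 18 days post partum, at 25 days post partum and at 6 weeks. RNA of 19 to 33 nt was selected, per the labels. The 8 libraries were pooled in 1 table in which no sequence is tied to a library or has a read number, so homozygous and heterozygous testes were not compared, the depth of each library is unknown, and neither the tissue nor the genotypes could be checked against marker genes. The values below are therefore numbers and shares of different sequences, and an RNA read many times weighs no more than one read a single time. Intervals are exact (Clopper-Pearson) and cover counting error only. There were no replicates and no test was run, so differences between classes are descriptions.

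In background, MERVL is a retrovirus-like element with gag and pol genes between its LTRs and without an envelope gene, best known for its expression in the cleavage-stage embryo, where MT2_Mm serves as its promoter. PiRNAs guide Piwi proteins to transposon transcripts in the male germline. PiRNAs made from a precursor transcript tend to begin with U, written T here. When a Piwi protein cuts a target, the cut lies across from bases 10 and 11 of the guide. The new piRNA made from that cut then overlaps the guide by 10 nt at the 5' ends and tends to have A at position 10, a cycle known as ping-pong. A short RNA of about 19 nt has been described in mouse testis as a by-product of making such a piRNA, lying just upstream of its 5' end.

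The pairs that follow show this geometry in the sequences themselves. Sequences with the same first 20 bases were taken to have the same 5' end. The capitals mark the first 10 bases, which are the reverse complement of the first 10 bases of the partner. In such a pair, A at position 10 of a sequence and T first in its partner are the same base pair. Positions are those of the first base on the complete MERVL element of 6417 nt described further on. In a first pair of the internal region, the sense 5' end had 17 distinct sequences, began with A and had A at position 10, and its antisense partner had 12 and began with T.
internal sense, element position 726, 17 distinct sequences: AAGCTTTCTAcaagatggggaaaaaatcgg
internal antisense partner, element position 735, 12 distinct sequences: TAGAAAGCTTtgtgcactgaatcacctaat
The other pair shown for the internal region had the same arrangement, with C as the first base of the sense sequence.
internal sense, element position 3713, 16 distinct sequences: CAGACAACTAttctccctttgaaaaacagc
internal antisense partner, element position 3722, 13 distinct sequences: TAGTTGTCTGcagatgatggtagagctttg

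In MT2_Mm, the 5' end with most distinct sequences (35) and its partner (12, of which 8 were named MT2_Mm and 4 MT2C_Mm) both began with C and had G at position 10, so this pair has neither of the base preferences of ping-pong.
MT2_Mm, 35 distinct sequences: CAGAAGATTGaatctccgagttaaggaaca
MT2_Mm and MT2C_Mm partner, 12 distinct sequences: CAATCTTCTGgaatccatagccactatggt
The next MT2_Mm pair had T first and A at position 10 on both strands.
MT2_Mm sense, 15 distinct sequences: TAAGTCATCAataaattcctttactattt
MT2_Mm antisense partner, 22 distinct sequences: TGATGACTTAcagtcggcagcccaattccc
A single overlap joined LTR families that carry different names. The antisense 5' end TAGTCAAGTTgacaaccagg, near the start of the LTR in the sense direction, was shared by 128 distinct sequences annotated to MT2C_Mm (77), MT2_Mm (27), MT2B2 (13) and MT2B (11). Its partner with most distinct sequences in the older LTRs had 74, annotated to MT2A (46) and MT2B (28). In MT2_Mm itself, the partner differed downstream of the overlap and had 21, of which 9 were named MT2_Mm and 12 MT2C_Mm.
older MT2 and MT2_Mm antisense, 128 distinct sequences: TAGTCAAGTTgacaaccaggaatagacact
MT2A and MT2B partner, 74 distinct sequences: AACTTGACTAcatctggaatgaaccacaat
MT2_Mm partner, 9 distinct sequences in MT2_Mm: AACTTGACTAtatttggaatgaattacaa
The sequences with AACTTGACTA began with A and had A at position 10, so those across from them began with T. The authors' map number is the number of genomic positions to which a sequence mapped. It was 4 for the sequence printed for the shared 5' end and 1 for that of the MT2A and MT2B partner. Another sequence of the shared 5' end, named MT2_Mm, mapped to 99 positions, so these numbers describe single sequences and not the 5' end.

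The lengths of the classes differed. The most frequent length between 24 and 33 nt was 29 nt in the internal region and in MT2_Mm, 27 nt in the older MT2 LTRs and 26 nt in sequences annotated to mRNAs. Sequences of 29 to 31 nt formed 40.02% of the internal region's piRNA-length sequences (39.4 to 40.7), 43.6% of MT2_Mm (42.0 to 45.2), 34.4% of the older MT2 LTRs (33.7 to 35.1) and 20.7% of mRNA sequences (20.6 to 20.8). Within the older LTRs this share was 38.7% in MT2C_Mm, 34.7% in MT2B2, 32.1% in MT2B and 31.8% in MT2A. The piRNA-length classes also differed in how many distinct sequences shared a 5' end, with 2.20 in MT2_Mm, 1.92 in the internal region and 1.65 in the older LTRs.

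**Figure D1:**
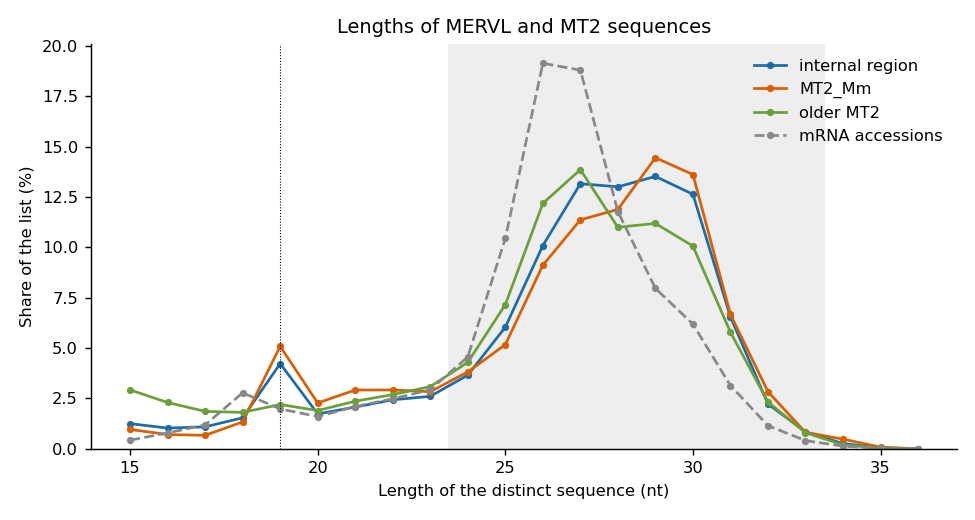
Share of each list (per cent, y axis) at each sequence length (nt, x axis) for the internal region, MT2_Mm, the older MT2 LTRs and mRNA sequences (dashed), with 24 to 33 nt shaded and 19 nt marked by a dotted line. The internal region and MT2_Mm have a separate peak at 19 nt and a maximum at 29 nt, and mRNA sequences peak at 26 nt with no peak at 19 nt.

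A separate peak stood at 19 nt. The internal region had 1070 sequences of 19 nt, against 389 of 18 nt and 438 of 20 nt, so that 19 nt had 2.59 times the mean of its neighbours. MT2_Mm had 244 sequences of 19 nt, against 64 of 18 nt and 109 of 20 nt, a ratio of 2.82. In the older LTRs the ratio was 1.19, and it went down through MT2C_Mm (1.58), MT2B2 (1.33) and MT2B (0.96) to MT2A (0.907). For comparison, the ratio was 2.14 in IAPEz-int, the internal region of a mouse retrovirus still able to move, and 1.77 in IAP LTRs. It was 2.55 in MTA elements, 1.35 in all other repeats and 0.902 in mRNA sequences. Ratios above 2 were thus found in the internal region, MT2_Mm, IAPEz-int and MTA elements alike. The 19-nt sequences began with T less often than longer ones. Of the 244 MT2_Mm sequences of 19 nt, 31.1% began with T, against 66.2% of its sequences of 27 nt.

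At piRNA length, most sequences of each class began with T. The share with T at position 1 was 67.4% (66.7 to 68.0) of 20681 in the internal region, 62.3% (60.7 to 63.8) of 3824 in MT2_Mm and 70.3% (69.6 to 70.9) of 18136 in the older LTRs. It was 61.2% in IAPEz-int, 58.5% in IAP LTRs, 68.5% in MTA elements, 71.9% in other repeats and 78.4% in mRNA sequences. Among the older LTRs the share was lowest in MT2C_Mm (64.7%) and higher in MT2B2 (71.0%), MT2B (72.4%) and MT2A (73.9%).

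A at position 10 also differed between the classes. It was found in 42.4% (41.7 to 43.1) of the internal region, 43.7% (42.1 to 45.3) of MT2_Mm and 36.1% (35.4 to 36.8) of the older LTRs. The share was 45.7% in IAPEz-int, 40.6% in IAP LTRs, 47.3% in MTA elements, 35.97% in other repeats and 25.8% in mRNA sequences. Among the older LTRs it was 40.1% in MT2C_Mm, 36.7% in MT2B2, 35.3% in MT2B and 32.7% in MT2A. The 4 names stood in opposite orders in the 2 measures. The intervals for T first overlap among MT2B2, MT2B and MT2A, and those for A at position 10 overlap between MT2B2 and MT2B and between MT2C_Mm and MT2B2. The preference lay mostly in sequences that did not begin with T. In the internal region, 63.1% of the 6750 sequences without T first had A at position 10, against 32.4% of the 13931 with T first. The values were 60.2% and 33.6% in MT2_Mm and 47.8% and 31.2% in the older LTRs, against 27.96% and 25.2% in mRNA sequences. Sequences with A at position 10 and no T first were longer by 0.435 nt on average than those with T first and no A at position 10 in the internal region, by 0.23 nt in MT2_Mm and by 0.448 nt in the older LTRs.

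**Figure D2:**
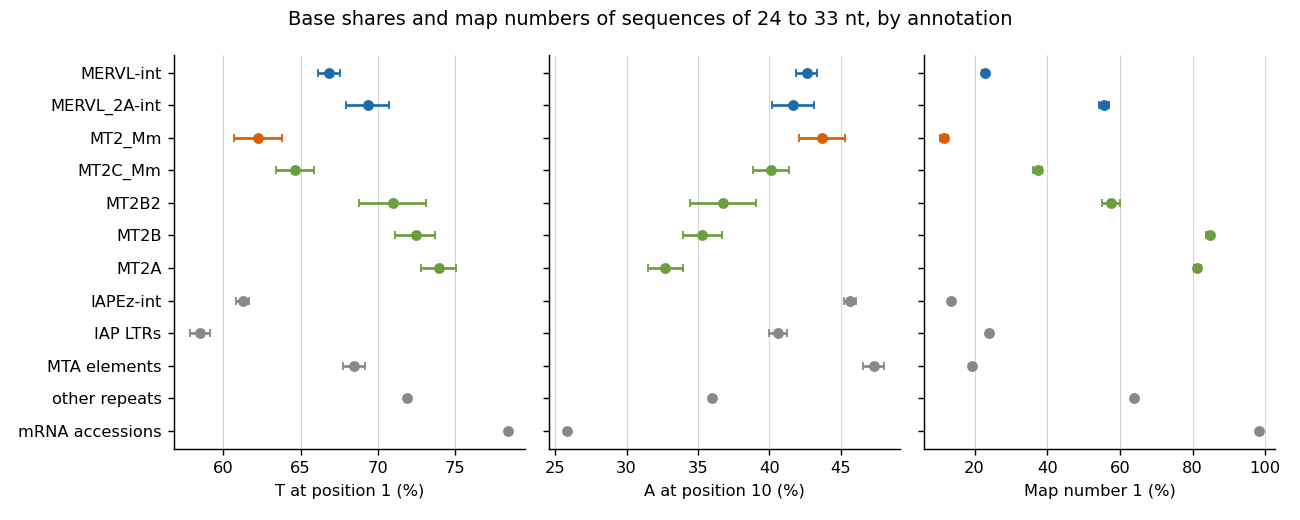
Share of piRNA-length sequences (per cent, x axes) with T at position 1, with A at position 10 and with map number 1, for the 7 MERVL and MT2 names (coloured by class) above 5 comparison lists (grey); points are shares and bars are exact 95% intervals. Among the older LTRs, MT2A has the highest share with T first (73.9%) and the lowest with A at position 10 (32.7%), and MT2C_Mm the reverse (64.7% and 40.1%).

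The names also differed in how often their sequences mapped to 1 position. Map number 1 was recorded for 29.8% of the internal region (29.1 to 30.4), 11.5% of MT2_Mm (10.5 to 12.6) and 65.7% of the older LTRs (65.0 to 66.4), and the median map number was 48, 228 and 1 in that order. By name the share was 22.8% in MERVL-int, 55.6% in MERVL_2A-int, 37.3% in MT2C_Mm, 57.6% in MT2B2, 84.7% in MT2B and 81.3% in MT2A. In the internal region and the older LTRs, but not steadily in MT2_Mm, sequences with fewer positions began with T more often. In the internal region 74.4% of sequences with map number 1 began with T, against 71.9% at 2 to 10 positions, 71.0% at 11 to 100 and 61.2% at over 100 and up to 1000. Older LTR sequences began with T in 72.8% at map number 1 and 51.0% at over 1000 positions. MT2_Mm had T first in 63.7% at map number 1, 65.6% at 2 to 10 positions, 64.4% at 11 to 100, 64.9% at over 100 and up to 1000, and 56.1% at over 1000. A at position 10 was found in 38.8% of internal sequences at map number 1 and 45.1% at over 100 and up to 1000 positions. In MT2_Mm it was found in 46.3% at map number 1 and 40.3% at over 1000 positions.

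Partners on the opposite strand were then sought by sequence alone. For each overlap from 10 to 20 nt, the bases that the overlap requires were looked up among the 5' ends of the same class, comparing 10 bases each time. In the internal region, 45.8% (44.8 to 46.7) of 10764 5' ends had a partner at 10 nt, while the 10 longer overlaps, 11 to 20 nt, averaged 29.3% ± 1.002 (SD). MT2_Mm had 56.3% (53.9 to 58.7) of 1737 at 10 nt, against 41.9% ± 2.34 at the other overlaps. The older LTRs had 27.5% (26.7 to 28.3) of 10967, against 18.1% ± 1.05. In all 3 classes the value at 10 nt was above the highest at any other overlap, which was 30.8% in the internal region, 45.8% in MT2_Mm and 19.9% in the older LTRs. Dividing the value at 10 nt by the average of the longer overlaps gave 1.56 in the internal region, 1.34 in MT2_Mm and 1.52 in the older LTRs, against 1.27 in IAPEz-int, 1.25 in IAP LTRs and 1.47 in MTA elements. With map number 1 only, the 3 classes had partners at 10 nt for 17.5%, 20.3% and 17.6% of 5' ends and ratios of 2.46, 2.59 and 1.97, so the order of the classes depends on which sequences are used.

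A at position 10 and T at position 1 can raise such a value through base composition, so the lookup was repeated among 5' ends with A at the base that pairs with a partner's first base. With A required, 63.8% of internal 5' ends had a partner at 10 nt, against 50.2% ± 1.25 at the other overlaps, a ratio of 1.27. In MT2_Mm these values were 68.7% and 61.0% ± 3.12, a ratio of 1.13, and in the older LTRs 44.1% and 29.1% ± 1.70, a ratio of 1.52. The ratio was thus smaller than without this requirement in the internal region and in MT2_Mm, and of the same size in the older LTRs. The 4 names with the lowest values at the longer overlaps had the highest ratios, 2.14 in MERVL_2A-int (12.4% and 5.76%), 2.21 in MT2B (14.9% and 6.76%), 2.07 in MT2B2 (22.5% and 10.9%) and 1.74 in MT2A (9.59% and 5.50%), against 1.59 in MERVL-int and 1.46 in MT2C_Mm.

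Partners crossed between LTR families but hardly between the LTRs and the internal region. Of the 1737 MT2_Mm 5' ends, 44.6% (42.3 to 47.0) had a 10-nt partner among the older LTRs, against 30.7% ± 2.96 at the other overlaps. Of the older LTRs' 5' ends, 11.2% (10.6 to 11.8) had a 10-nt partner in MT2_Mm, against 7.05% ± 0.823, and with A required 17.8%, against 11.02% ± 1.55. The pair with 128 and 74 distinct sequences printed above is such a crossing pair. Internal 5' ends found a 10-nt partner in MT2_Mm in 0.362% and MT2_Mm 5' ends in the internal region in 2.76%, against 0.242% and 2.20% at the other overlaps. With IAPEz-int, IAP LTRs and MTA elements, 10-nt partners were found for 1.22% to 3.51% of the 5' ends of the 3 classes, against 0.846% to 2.80% at the other overlaps. The ratios with these other lists were 1.20 to 1.71, a range that includes the ratios within all 3 classes. Without A required, the ratio alone therefore does not set pairs within a class apart from pairs between lists. With A required, the ratios with these lists were 1.09 to 1.31. That range includes the ratios within the internal region (1.27), within MT2_Mm (1.13) and of MT2_Mm with the older LTRs (1.29). The ratio within the older LTRs (1.52) and that of the older LTRs with MT2_Mm (1.62) lay above it. MT2_Mm and MT2C_Mm also shared 217 5' ends outright, 12.5% of those of MT2_Mm and 7.52% of those of MT2C_Mm, whereas MT2_Mm and MT2A shared 2.

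**Figure D3:**
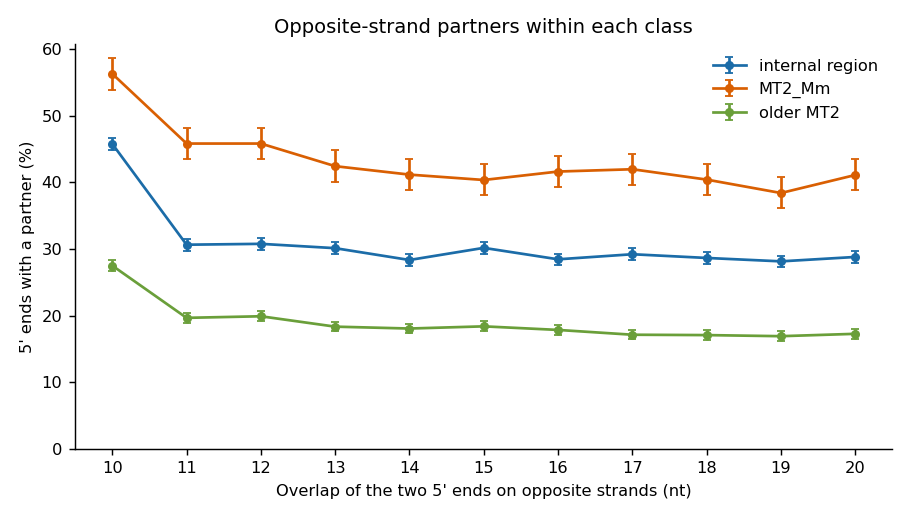
Share of 5' ends with a partner on the opposite strand in the same class (per cent, y axis) by overlap (nt, x axis); points are shares and bars exact 95% intervals. Each class is highest at 10 nt, with 45.8% in the internal region, 56.3% in MT2_Mm and 27.5% in the older MT2 LTRs.

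The table holds no coordinates, so strand was read from a reference copy. The GENCODE transcripts of Tmem72 contain 1 complete MERVL element of 6417 nt in the last exon, in the opposite orientation to the gene, at chr6:116685156-116691572 on the plus strand of GRCm38. It has LTRs of 494 nt that differ at 1 position, is flanked by a 5-nt direct repeat, and has an internal region of 5429 nt with open reading frames of 493 and 1182 codons, in the places of gag and pol. Exact matches to this element were found for 7730 of 20681 internal sequences (37.4%), 1077 of 3824 MT2_Mm sequences (28.2%) and 173 of the 18136 older LTR sequences (0.954%). With up to 3 mismatches, 83.8% of internal and 86.9% of MT2_Mm sequences were placed on it, and 15.7% of the older LTRs.

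Among all sequences that matched exactly, both strands were represented about equally in the internal region and in MT2_Mm. The 2 names of the internal region differed, as given below. With map number 1 only, the antisense share on the element segments was lower, 27.3% of internal and 17.6% of MT2_Mm sequences. These 2 shares rest on few sequences. At most 715 internal and 33 MT2_Mm sequences with map number 1 matched any transcript, and 380 of the internal ones lay in 1 gene, B230354K17Rik. Of the internal sequences that matched the element exactly, 3784 were antisense and 3946 sense, so that 49.0% (47.8 to 50.1) were antisense. Of the MT2_Mm sequences, 512 were antisense and 565 sense, 47.5% antisense (44.5 to 50.6). A wider set of 906 element segments in 456 transcripts matched more sequences and gave 48.7% antisense (47.8 to 49.6) of 11327 in the internal region and 49.6% (47.6 to 51.7) of 2393 in MT2_Mm, but 66.2% (64.3 to 68.1) of 2315 in the older LTRs. Those older LTR sequences were mostly MT2C_Mm (1855), the older name that shares most 5' ends with MT2_Mm, and 13 of them were MT2A. The names differed, with 70.0% antisense (67.8 to 72.1) in MT2C_Mm and 57.5% (51.7 to 63.1) of 308 in MT2B2. In MT2B 39.6% (31.4 to 48.2) of 139 were antisense, and in MT2A 23.1% (5.04 to 53.8).

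Sequences that differ from the element were more often antisense. In the internal region the antisense share was 49.0% at 0 mismatches, 58.6% (57.4 to 59.8) at 1, 69.3% (67.4 to 71.2) at 2 and 68.0% (65.0 to 70.9) at 3. In MT2_Mm it was 47.5%, 54.5%, 52.2% and 55.2% in the same order, with intervals that overlap from 1 mismatch on. The name also went with the strand. Of the exact matches, 54.7% of 6754 MERVL-int sequences and 9.02% (7.29 to 10.99) of 976 MERVL_2A-int sequences were antisense. With up to 3 mismatches, 60.7% (59.9 to 61.5) of the placed MERVL-int and 27.3% of the placed MERVL_2A-int sequences were antisense. The share was 56.2% in the whole internal region. Whether the annotation gave these names by strand was not tested.

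**Figure D4:**
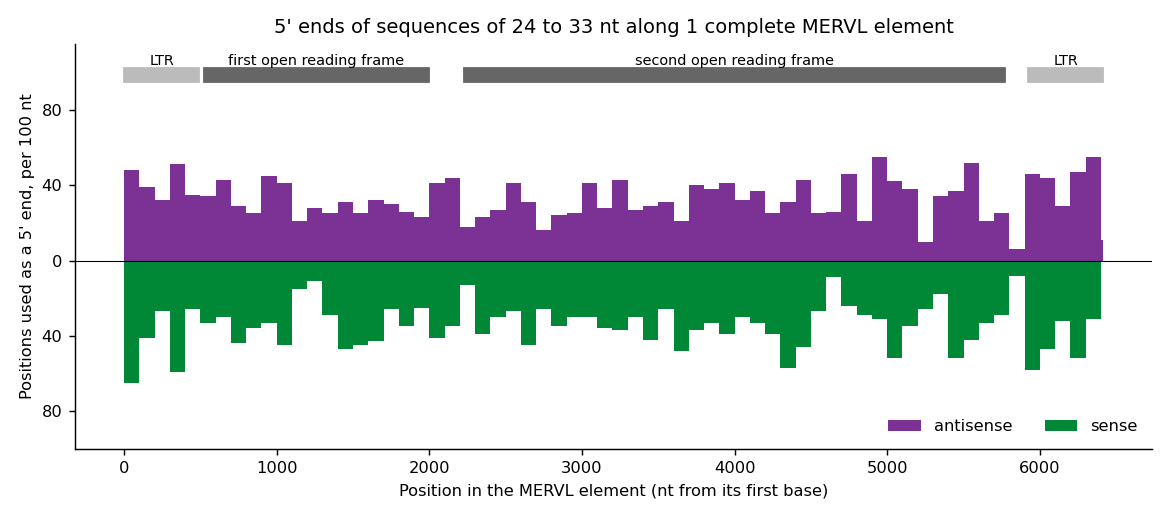
Number of positions used as the 5' end of a piRNA-length sequence in each 100 nt (y axis; antisense upward, sense downward) along the complete MERVL element (x axis, nt from its first base), with LTRs and open reading frames drawn above. 5' ends of both strands cover the LTRs and both reading frames, and the stretch from 5801 to 5900 nt, just before the 3' LTR, has 6 antisense and 8 sense positions.

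5' ends of both strands were spread along the element. In the internal region, 1700 positions (31.3%) were the 5' end of an antisense and 1804 (33.2%) of a sense sequence, and the longest run without one was 80 nt antisense and 87 nt sense. The 2 reading frames were alike, with 30.6% and 33.2% of positions used antisense and sense in the first and 31.8% and 33.9% in the second. The 5' LTR had 41.1% and 43.3%. A sparse stretch lay between the second reading frame and the 3' LTR, where 6 antisense and 8 sense positions were used from 5801 to 5900 nt.

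The base at a position went with its use. On the antisense strand of the internal region, 58.3% (55.8 to 60.7) of the 1592 T positions were a 5' end, against 22.6% of A, 20.5% of C and 16.6% of G positions. On the sense strand, 57.8% (55.2 to 60.4) of the 1405 T positions were, against 27.6% of A, 23.4% of C and 22.1% of G. Use of T was thus nearly equal on both strands, while 66.9% of antisense and 55.9% of sense sequences began with T, and the antisense strand has the more T positions. A at position 10 was found in 41.8% of antisense and 48.4% of sense sequences. Counted by position, A at position 10 went with more use, both with and without T first. Positions with T first and A at position 10 were used in 70.4% antisense and 69.8% sense, and T positions without such an A in 54.8% and 53.7%. Positions without T first were used in 35.5% and 43.9% with A at position 10, and in 14.4% and 16.2% with another base there.

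By position on the element, 891 of the 1804 sense 5' ends of the internal region (49.4%, 47.1 to 51.7) overlapped an antisense 5' end by exactly 10 nt. At the 24 other overlaps from 1 to 25 nt the mean was 33.9% ± 1.30 and the highest value was 37.8%. The ratio was 1.46. Sequences that match the element can also come from other copies, as their median map number was 662 antisense and 658 sense. With only those 5' ends that had at least 2 distinct sequences, the share was 44.1%, against 18.0% at the other overlaps. Both values were lower than with all 5' ends, and the ratio was 2.46. This setting does not address the other copies. In the 5' LTR, where 214 sense positions were used, the share at 10 nt was 54.2% (47.3 to 61.0), against 49.1% ± 5.03, and other overlaps reached 57.9%, so that an excess at 10 nt was not detectable there. Over both strands, 50.2% of the 936 5' ends of sequences of 20 to 23 nt overlapped a piRNA-length 5' end of the opposite strand by 10 nt, against 35.0% at the other overlaps. For the 694 sequences of 19 nt the share was 40.1%, against 36.3%. Other overlaps reached 40.9%, so that an excess at 10 nt was not detectable for 19 nt.

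Among the 891 pairs, the antisense sequence alone began with T in 361 (40.5%), the sense sequence alone in 250 (28.1%), both in 198 (22.2%) and neither in 82 (9.20%). This split was not computed at the other overlaps, where on average 33.9% of sense 5' ends had a partner. How far the 4 kinds are particular to 10 nt was therefore not tested. The paired sequences can also come from different copies.

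Most 19-nt sequences ended where a piRNA-length sequence began. Of the 694 sequences of 19 nt located in the internal region of the element, 432 (62.2%, 58.5 to 65.9) were followed at the next base, on the same strand, by the 5' end of a piRNA-length sequence. At 9 other distances, from 4 nt before to 5 nt after, the mean was 36.98% ± 2.002 and the highest value 40.1%. The share was 61.3% for the 305 antisense and 63.0% for the 389 sense sequences. At neighbouring lengths the difference was smaller. Sequences of 18 nt were followed at the next base in 38.1%, against 36.03% ± 2.14, and those of 20 nt in 94 of 235 cases, against 33.9% ± 1.61.

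The bases after the 19-nt sequences were often T at the next position and A at the position 10 bases on. T followed 49.5% of antisense and 46.0% of sense sequences of 19 nt, against 29.7% and 24.3% after sequences of 18 nt. A stood 10 bases after the 3' end in 55.4% of antisense and 57.8% of sense sequences of 19 nt, against 20.9% and 29.7% for 18 nt. Examples of a 19-nt sequence and the piRNA-length sequence that starts at the base after it are both antisense, and the capitals again mark the first 10 bases of the longer RNA. The following 5' end had 10 distinct sequences in both examples.
19-nt sequence 1, element positions 3079 to 3061: tatatccttgaggcaaaac
following sequence 1, from position 3060: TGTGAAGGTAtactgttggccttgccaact
19-nt sequence 2, element positions 5579 to 5561: agtttcccattgactttaa
following sequence 2, from position 5560: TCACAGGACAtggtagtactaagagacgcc

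5' ends just downstream of a 19-nt sequence had partners more often than the others. Of the 432 such 5' ends, 80.8% (76.8 to 84.4) had a 10-nt partner on the opposite strand of the element, against 46.6% (44.8 to 48.4) of the 3071 other 5' ends. They had A at position 10 in 66.2% (61.5 to 70.7), against 36.8% (35.1 to 38.5), and T first in 60.4%, against 48.2%. They also held more distinct sequences, 3.25 per 5' end against 2.07, so how much of the difference in partners goes with how densely a site was sampled was not tested.

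**Figure D5:**
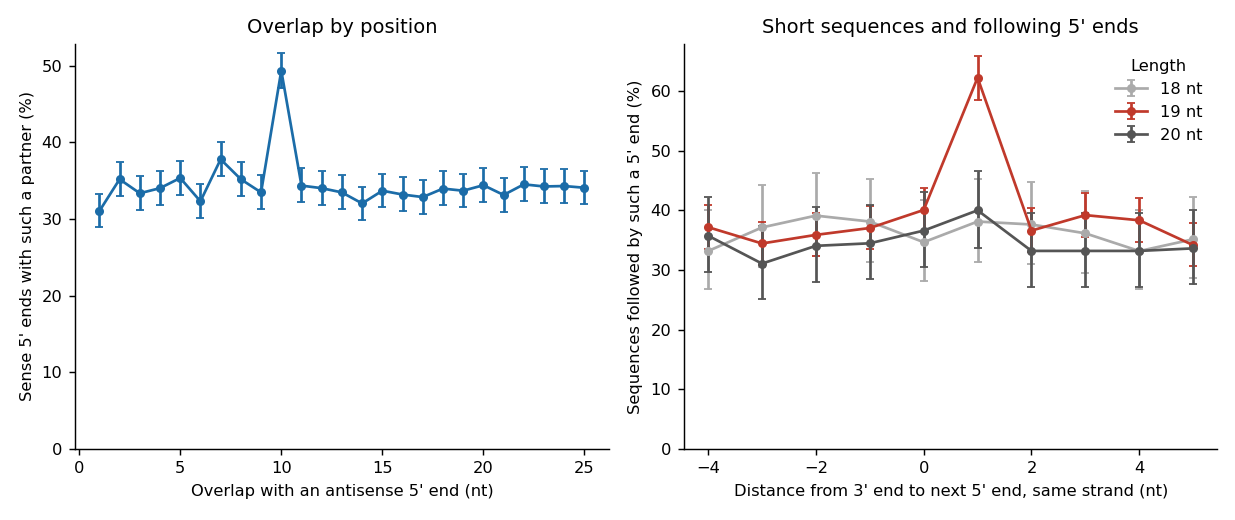
Left, share of sense 5' ends in the internal region of the MERVL element that overlap an antisense 5' end (per cent, y axis) by 1 to 25 nt (x axis). Right, share of sequences of 18, 19 and 20 nt (per cent, y axis) followed by a piRNA-length 5' end on the same strand at each distance from their 3' end (nt, x axis); bars are exact 95% intervals. The left panel peaks at 10 nt with 49.4%, and at 1 nt in the right panel 19 nt stands at 62.2% and 18 nt at 38.1%.

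A minority of the sequences with map number 1 matched annotated spliced transcripts, in either direction. The same share was not computed for other repeats, and a match does not show where a sequence was made. Exact matches were found for 715 of 6157 internal sequences (11.6%), 33 of 441 MT2_Mm sequences (7.48%) and 1035 of 11909 older LTR sequences (8.69%). Of the 715 internal sequences, 498 matched in the direction of transcripts alone, 79 in the opposite direction alone and 138 in both directions. Among those that matched in 1 direction alone, 86.3% (83.2 to 89.0) of 577 were in that of the transcript in the internal region, 87.9% (71.8 to 96.6) of 33 in MT2_Mm and 86.6% (84.4 to 88.6) of 1030 in the older LTRs, where 5 matched in both. The direction here is that of the host transcript and not that of the retroviral element.

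For the internal region, the gene with most was the noncoding B230354K17Rik at chr17:45433598-45442544 on the plus strand, with 326 sense and 54 antisense sequences, all named MERVL_2A-int. The same gene had 51 sense and 2 antisense MT2B sequences. The lincRNA 4930480K23Rik on chromosome 14 had 83 sense and 8 antisense MERVL-int sequences, 2310057M21Rik had 22 and 0, Mrps2, a mitochondrial ribosomal protein gene, had 21 and 0, and Tnfrsf22 had 9 and 1. In MT2_Mm, D10Wsu102e had 16 sense and 0 antisense sequences, and no other gene had more than 4. D10Wsu102e also had 33 sense MT2C_Mm sequences. The older LTRs had most in Gm10505 on chromosome 17 (74 sense and 8 antisense, MT2C_Mm), followed by B230354K17Rik, then Gm31181 (48 and 0), D10Wsu102e (33 and 0) and Bbs1, a gene of the primary cilium (32 and 0, MT2B).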

How the data were processed

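The authors deposited 1 table for the series. Per the file headers it lists distinct sequences with a final annotation and a map number, which counts mapped positions and not reads. None of its 3 columns is tied to a library (0). The aligner, genome build and annotation sources are not given in the sources used here. The members, classes and lists were chosen with earlier results of these data known. Each name with at least 500 sequences of 24 to 33 nt is described, which all 7 have. For each class the 5' end with most distinct sequences, its 10-nt partner and further pairs are printed (repeated and near-identical older LTR pairs once). For the internal region the pair of the 5' end with most distinct sequences is not reported here, so its printed pairs are the next 2. The 5 genes with most sequences of map number 1 are named, in MT2_Mm only the first.

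A 5' end is the first 20 bases. Because no genome sequence was used here, strand came from GENCODE M21 transcripts (GRCm38) in place of genome copies, and genes replaced genome windows. Whole sequences were compared without mismatches with the element in Tmem72 and with transcript segments of at least 100 nt found with blastn 2.17.0 (e-value 1e-05, word size 11). The sense strand is that of the open reading frames. Placement with mismatches allowed no gaps. Python 3.11.15 and scipy 1.17.1 were used for counts and exact intervals. The functions were tested on simulated sequences. Alternatives were a window of 25 to 32 nt, map number 1 only, each 5' end counted once, 8 bases compared, A required at the pairing position and 1 element for strand.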

Additional observations from a re-analysis of the deposited data

Results flagged for a closer look

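Some MERVL and MT2 sequences were shorter or longer than the 19 to 33 nt selected per the labels. There were 3466 of 15 to 18 nt (6.52% of all 53163, 6.31 to 6.73), of which 30.6% (29.02 to 32.1) began with T and 13.6% had map number 1. By class, 1241 were internal, 176 MT2_Mm and 2049 older MT2. Another 159 were 34 to 36 nt long (0.299%), and 61.0% (53.0 to 68.6) of them began with T. Both sets were singled out because they lie outside the selected sizes, but other lists held such lengths too. Sequences of 15 nt were 1.25% of the internal region, 0.959% of MT2_Mm and 2.92% of the older LTRs. They were 3.54% of other repeats, 0.936% of unannotated and 0.429% of mRNA sequences. At 34 nt the shares were 0.261%, 0.480% and 0.191% in the 3 classes, and 0.214%, 0.271% and 0.128% in those 3 lists. Of the shorter set, the 18-nt sequences were used in the report as neighbours of the 19-nt sequences.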

How the results depend on the processing

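Of 73 values recomputed under another setting, 32 stayed within the main value's 95% interval (counts within 1.5 times) and 41 moved. A window of 25 to 32 nt moved none. The classes below are the internal region, MT2_Mm and the older LTRs, in that order. With map number 1 only, the numbers were 6157, 441 and 11909. T at position 1 became 74.4% and 72.8% in the internal region and the older LTRs. A at position 10 became 38.8%, 46.3% and 34.4%, the 10-nt partner share 17.5%, 20.3% and 17.6%, its ratio 2.46, 2.59 and 1.97, and the antisense share 27.3%, 17.6% and 63.8%. The antisense share of MT2_Mm rests here on at most 33 sequences. The internal region then had the highest share with T first, where the older LTRs had it among all sequences. With each 5' end counted once, T at position 1 was 61.0%, 56.1% and 68.6% and A at position 10 was 39.0%, 41.4% and 35.0%. Comparing 8 bases gave partner shares of 56.8%, 62.4% and 42.7% and ratios of 1.38 and 1.26 in the internal region and the older LTRs. Requiring A gave 63.8%, 68.7% and 44.1%, and ratios of 1.27 and 1.13 in the internal region and MT2_Mm. On 1 complete element the antisense share was 47.5% in MT2_Mm and 59.5% in the older LTRs.

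Other settings were chosen after seeing the data. With up to 3 mismatches the antisense share was 56.2%, 51.8% and 71.5%. The 19-nt ratio of the older LTRs was 1.04 against 17 and 21 nt. With at least 2 distinct sequences per 5' end, the 10-nt overlap on the element was 44.1% and the 19-nt sequences were followed in 45.5%, against 18.0% and 19.9% at other overlaps and distances. The cause of these shifts was not tested. Counting exact matches to a genome in place of the authors' map number was not run. No paired analysis was possible because no sequence is tied to a library. The number of distinct sequences rises with depth, which is unknown, and sequences of 1 5' end are not independent.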
